A study of Homo sapiens with 9 samples.

Results

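A set of 10 genes of placental hormone production was followed in differentiating human embryonic stem cells, taken by symbol from the 27730 symbols of the deposited count table. They are CGA and the CGB, CGB5, CGB7 and CGB8 rows, which encode the 2 subunits of chorionic gonadotropin; INSL4, an insulin-like hormone of the placenta; CYP11A1, HSD3B1 and CYP19A1, enzymes of steroid synthesis; and GCM1, a transcription factor of trophoblast. RNA came from HUES9, an established human embryonic stem cell line grown on mitotically inactive mouse fibroblasts, treated before the procedure with 5 mM of a reagent the labels call only a Stemolecule, and then differentiated as spun embryoid bodies that were later plated on Matrigel. A first group was taken at day 1 without a compound, and the other groups at day 13 of culture in 10 µM of either AA147 or RP22. Each group has 3 libraries, from separate experiments per the labels, and all come from this 1 line. AA147 is described in the labels as an activator of the ATF6 arm of the unfolded protein response and RP22 as its inactive analog. Solvent-only cultures are not analysed here.

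In the placenta, chorionic gonadotropin and steroids are made chiefly by the syncytiotrophoblast, a layer formed when trophoblast cells fuse. GCM1 is known as a driver of this fusion and of the retroviral envelope genes, the syncytins, that carry it out. The hormone pairs a common alpha subunit (CGA), which luteinizing, follicle-stimulating and thyroid-stimulating hormone share, with a beta subunit that several near-identical genes encode. Placental steroid synthesis runs from cholesterol to pregnenolone through CYP11A1, to progesterone through HSD3B1, and from androgens to estrogens through CYP19A1 (aromatase).

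Sequences are shown for the hormone subunits, because the reads of the CGB rows cannot be separated cleanly and because the upstream regions of these genes differ. They are the 250 bases before the annotated start, from RefSeq on GRCh38.p14, a later build than the GRCh37.p13 named in the submitters' processing notes. All 10 genes, with CGB1 and CGB2, matched the RefSeq table, where CGB is listed as CGB3. The region before CGA, chr6:87095107-87095356 on the minus strand, holds 2 copies of the cAMP response element TGACGTCA, at bases -142 to -135 and -124 to -117, and the letters TATAAA at -29 to -24, all in capitals.
CGA: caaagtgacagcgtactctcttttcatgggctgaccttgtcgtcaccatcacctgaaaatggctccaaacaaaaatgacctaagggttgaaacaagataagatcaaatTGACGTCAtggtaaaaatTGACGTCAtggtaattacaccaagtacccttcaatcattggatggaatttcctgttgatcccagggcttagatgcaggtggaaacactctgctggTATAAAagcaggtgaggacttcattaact
The 4 CGB regions lie on chromosome 19 at chr19:49024334-49024583 (CGB, minus strand), chr19:49043598-49043847 (CGB5, plus), chr19:49049112-49049361 (CGB8, minus) and chr19:49057750-49057999 (CGB7, minus). Capitals mark the longest run that CGB, CGB5 and CGB8 share without a mismatch, 74 bases, which is not found in CGB7.
CGB: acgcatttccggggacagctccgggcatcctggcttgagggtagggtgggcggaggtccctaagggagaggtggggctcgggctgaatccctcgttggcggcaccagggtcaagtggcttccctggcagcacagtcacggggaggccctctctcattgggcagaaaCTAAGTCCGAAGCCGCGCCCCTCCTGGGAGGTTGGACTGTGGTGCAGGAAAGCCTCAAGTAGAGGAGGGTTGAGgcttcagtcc
CGB5: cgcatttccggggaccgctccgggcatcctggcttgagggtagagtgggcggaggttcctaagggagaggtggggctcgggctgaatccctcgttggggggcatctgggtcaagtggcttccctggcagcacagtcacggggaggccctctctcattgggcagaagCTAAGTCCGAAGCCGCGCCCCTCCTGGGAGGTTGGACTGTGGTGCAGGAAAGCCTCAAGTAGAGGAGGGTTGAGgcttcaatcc
CGB8: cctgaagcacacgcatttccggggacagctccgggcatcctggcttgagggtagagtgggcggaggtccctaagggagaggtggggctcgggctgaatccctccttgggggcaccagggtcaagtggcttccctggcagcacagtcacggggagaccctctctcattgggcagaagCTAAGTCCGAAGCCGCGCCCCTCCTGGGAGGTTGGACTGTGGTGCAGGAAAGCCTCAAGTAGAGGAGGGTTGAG
CGB7: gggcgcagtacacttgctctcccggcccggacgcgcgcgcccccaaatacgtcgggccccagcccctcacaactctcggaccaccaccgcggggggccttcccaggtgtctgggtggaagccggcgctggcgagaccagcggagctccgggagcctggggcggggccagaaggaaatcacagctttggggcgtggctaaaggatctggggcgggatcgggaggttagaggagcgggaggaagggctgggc
Aligned pairwise, CGB, CGB5 and CGB8 were 89.3 to 96.0% identical, and CGB7 was 48.8 to 50.2% identical to each of them. Searched on both strands, TGACGTCA occurred in 1 of the 10 genes (CGA), and also in CGB1 (-53 to -46) and CGB2 (-31 to -24), against 1.65% of 35116 RefSeq promoter windows of this length. TATAAA occurred before CGA and before 1 of the 7 starts of CYP19A1, against 10.7% of all windows. The ATF6 site TGACGTGG (0.612% of all windows), the ER stress response element (0.0740%) and the GCM1 site ATGCGGG (1.55%) occurred before none of the 10 genes. None of the searched motifs overlapped another in these regions. A match or its lack describes the letters of the window and not binding.

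The 9 libraries held 9223026 to 10118260 reads. Replicate 1 of each group lay apart from replicates 2 and 3, most of all with RP22, where the chi-square divided by its degrees of freedom was 28.0 and 26.9 against replicates 2 and 3 and 2.39 between those. Without RP22 replicate 1 the members called for AA147 against RP22 also counted 9 lower and 1 higher. Levels are given as reads or as CPM, counts scaled to library size by TMM within the comparison, and compared between genes only as RPKM, which also divides by gene length. In these bulk samples fewer cells of a type and less RNA per cell cannot be told apart. Pluripotency markers (8 genes in the table) summed to 6215 to 7042 CPM of the library totals at day 1, 417 to 673 with RP22 and 99.3 to 130 with AA147. Amnion markers (10 genes) summed to 181 to 344, 2823 to 4107 and 7176 to 10231 CPM in the same order of groups. Their part in the results below was not tested.

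The hormone genes appeared during 13 days with RP22. The 10 genes together took 0.000332 to 0.000422% of a library's reads at day 1, 0.0439 to 0.0802% with RP22 and 0.0173 to 0.0207% with AA147. With RP22 all 10 were higher than at day 1 (edgeR's quasi-likelihood F test, with p adjusted by Benjamini-Hochberg to 0.00021 or below), where 36.6% of 14558 genes tested were higher and 35.2% lower. With AA147 at day 13, 9 of the 10 were lower than with RP22 and 1, HSD3B1, was higher, where 29.8% of 14293 genes tested were higher and 32.2% lower. The median log2 fold change of the 10 was -2.87, against -0.03 over all genes tested. The CGB rows among the 10 are not cleanly separate counts, which bears on these counts and this median. With the CGB rows summed to 1 row, 6 were lower and 1 higher with AA147 than with RP22. For all 10 the 3 libraries of one compound lay apart from the 3 of the other. The share of all genes tested that did so was not counted, so no weight is placed on this.

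**Figure D1:**
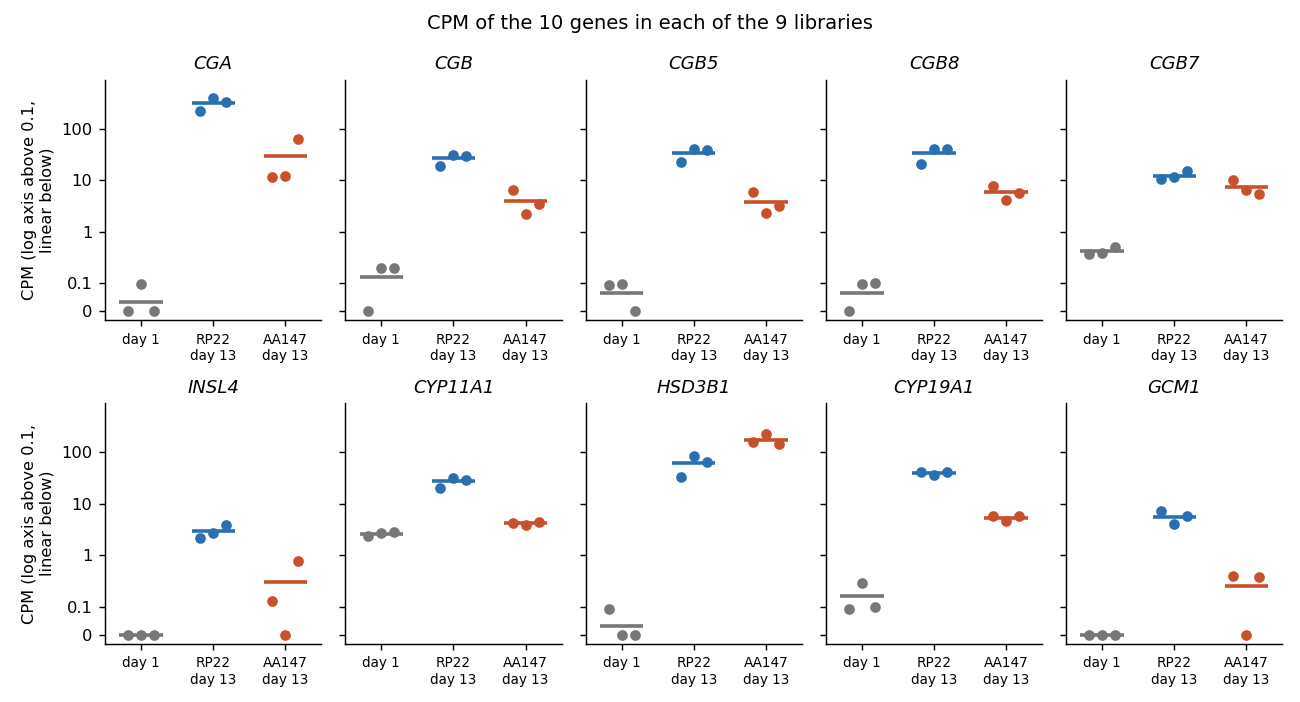
CPM of each of the 10 genes (y axis, log above 0.1 and linear below, scaled over all 9 libraries) in the 3 libraries of day 1, RP22 at day 13 and AA147 at day 13; points are libraries and lines are group means. CGA reached 219 to 397 CPM with RP22 and 11.3 to 63.5 with AA147, whereas HSD3B1 is the gene whose AA147 points all lie above its RP22 points.

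CGA, the shared alpha subunit, had 0, 1 and 0 reads in the day 1 libraries, 2348, 4362 and 3919 with RP22, and 86, 88 and 504 with AA147 (replicates 1, 2 and 3). Its level was thus high in all 3 RP22 libraries, low in the first 2 AA147 libraries and intermediate in the third, without overlap between the groups. AA147 libraries averaged 27.0 ± 27.8 CPM and RP22 libraries 311 ± 89.1 CPM (mean ± SD over 3 libraries), and the log2 fold change ± SE was -3.52 ± 0.789 (edgeR adjusted p = 0.013). Without AA147 replicate 3 it was -4.82 (adjusted p = 0.00036), and without replicate 1 of both groups -3.32 (adjusted p = 0.074). Against day 1, where 1 read was seen in 3 libraries, the ratio of normalised reads was 9806 with RP22 (95% counting interval 1760 to 387334) and 924 with AA147 (165 to 36537). The intervals cover counting error only.

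CGB, CGB5 and CGB8 share most of their transcript sequence with other genes of the cluster. Windows of 50 bases were taken from the longest annotated transcript of each gene (GENCODE 29). Of these, 79.6% for CGB, 86.0% for CGB5 and 82.8% for CGB8 also occur in another gene of the cluster. For CGB7, whose annotated transcript is far longer, it was 11.8%. CGB7 itself holds 39.1% of the windows of CGB, 42.7% of those of CGB5 and 39.1% of those of CGB8. The counts of these rows held no fractions in any library, so they do not show how reads that fit several rows were placed. The separate values of CGB, CGB5, CGB8 and CGB7 are therefore uncertain. The sum of the rows does not depend on how the kept reads were divided among them. It would be too low if reads that fit several rows were left out, and the share of each row could change. Luteinizing hormone's own beta subunit, LHB, shared 0.632% of its windows with the cluster and had 11 to 13 reads in the RP22 libraries and 2 to 7 with AA147.

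CGB had 203, 344 and 355 reads with RP22 and 49, 16 and 27 with AA147. CGB5 had 243, 447 and 469 reads with RP22 and 45, 17 and 25 with AA147. CGB8 had 219, 438 and 474 reads with RP22 and 59, 30 and 45 with AA147. In all 3 rows the lowest RP22 library was replicate 1 and the highest AA147 library was also replicate 1, and every RP22 value exceeded every AA147 value. The log2 fold changes of AA147 against RP22 were -2.80 ± 0.385 for CGB, -3.24 ± 0.384 for CGB5 and -2.59 ± 0.347 for CGB8 (SE, n = 3; edgeR adjusted p of 0.00083 or below). At day 1 the 3 rows held 4, 2 and 2 reads over 3 libraries.

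The CGB7 row fell less steeply, with the same limit on how shared reads were placed. It had 4, 4 and 5 reads at day 1, 111, 125 and 180 with RP22, and 78, 46 and 43 with AA147, so the AA147 values lay below those with RP22 but close to them. The mean fell from 12.1 ± 2.50 to 6.87 ± 2.49 CPM, a log2 fold change of -0.82 ± 0.275 (edgeR adjusted p = 0.031). The call was lost when AA147 replicate 2 (adjusted p = 0.11), AA147 replicate 3 (0.11), RP22 replicate 2 (0.056) or RP22 replicate 3 (0.11) was left out. On the log2 RPKM scale the change was -1.75 (limma adjusted p = 0.0027), where the length that the authors' RPKM implies for CGB7 ranged from 1585 to 2873 bases between libraries.

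Summed, the 6 CGB rows (the 4 above with CGB1 and CGB2) fell from 122 ± 35.3 CPM with RP22 to 23.2 ± 8.38 CPM with AA147, a log2 fold change of -2.40 ± 0.339 (edgeR adjusted p = 0.0016). CGB7 took 12.5, 7.91 and 10.5% of these reads in the RP22 libraries and 29.7, 34.3 and 25.6% in the AA147 libraries. The groups did not overlap, at 10.3 ± 2.32% against 29.9 ± 4.37% (SD, n = 3), and the exact two-sided permutation test gave p = 0.1, the smallest that 3 against 3 allows. This share was chosen after its values were seen. CGB5 went the other way, from 27.7% of the summed reads of the RP22 group to 15.4% of those of the AA147 group.

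**Figure D2:**
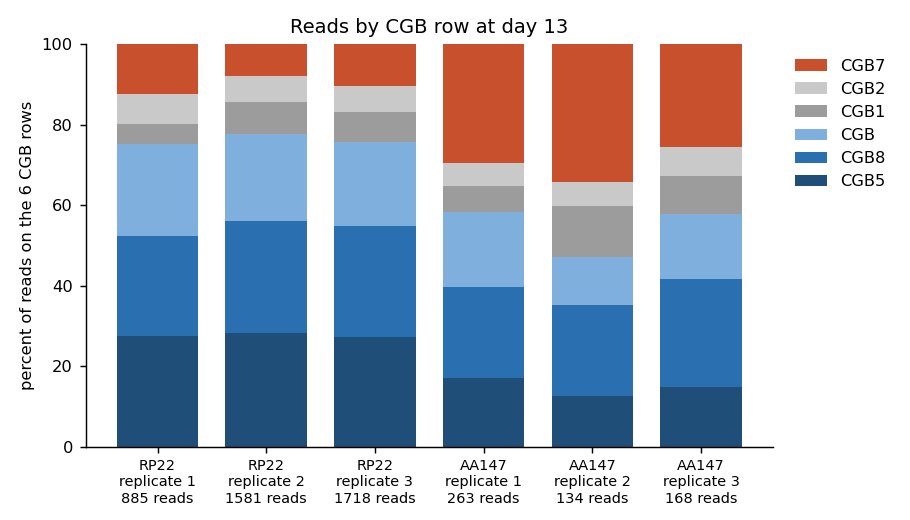
Percent of the reads on the 6 CGB rows (y axis) that fell on each row, in the 3 RP22 and the 3 AA147 libraries of day 13, with the number of reads under each bar. The CGB7 part covers 7.91 to 12.5% of the RP22 bars and 25.6 to 34.3% of the AA147 bars, and 134 to 263 reads stand behind an AA147 bar.

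With RP22 the alpha subunit had a higher RPKM than the summed CGB rows. How reads that fit several CGB rows were handled is not known. The ratio of CGA to these rows would be too high if such reads were left out. By RPKM, CGA stood at 2.93, 3.01 and 2.51 times the summed CGB rows in the RP22 libraries and at 0.406, 0.869 and 3.85 times with AA147. The RP22 ratios lay close together, and those with AA147 spread on both sides of 1 and of the RP22 range. The mean log2 ratio was 0.15 ± 1.65 with AA147 and 1.49 ± 0.142 with RP22 (SD, n = 3), a difference of -1.34 (exact two-sided permutation p = 0.4), so no difference in the ratio was shown beyond the spread between replicates. It was -2.24 without AA147 replicate 3 and -0.62 without AA147 replicate 1.

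**Figure D3:**
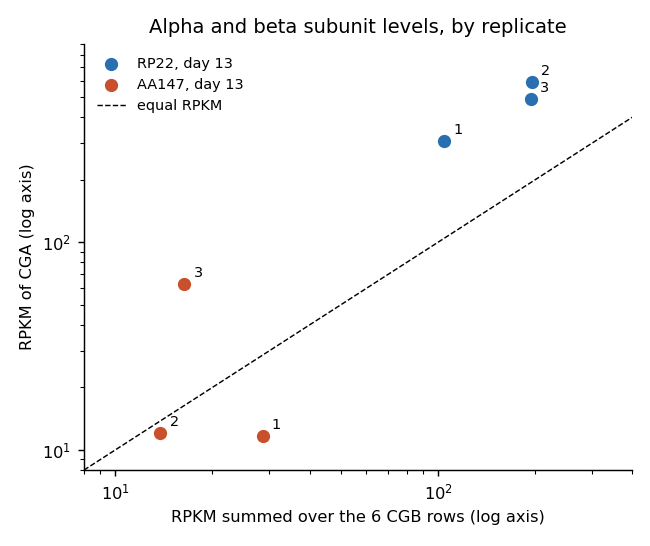
RPKM of CGA (y axis, log) against RPKM summed over the 6 CGB rows (x axis, log) in the 6 libraries of day 13, numbered by replicate, with a dashed line at equal values. The 3 RP22 points lie together above the line, while AA147 replicate 3 lies above it and AA147 replicates 1 and 2 below it.

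INSL4, whose gene is confined to primates and active in the placenta, had no read at day 1, 23, 30 and 46 reads with RP22, and 1, 0 and 6 with AA147. It was low throughout and nearly absent from 2 of the 3 AA147 libraries. AA147 gave 0.276 ± 0.376 CPM against 2.88 ± 0.869 with RP22, a log2 fold change of -3.28 ± 0.701 (edgeR adjusted p = 0.0043), which was -5.25 without AA147 replicate 3. With RP22 it was at least 30.4-fold higher than at day 1, taking 3 reads over the day 1 group as the floor.

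GCM1, the regulator of trophoblast fusion, had no read at day 1, 77, 44 and 68 with RP22, and 3, 0 and 3 with AA147. It fell from 5.56 ± 1.56 to 0.242 ± 0.210 CPM, a log2 fold change of -4.43 ± 0.567 (adjusted p = 0.00034). With RP22 it was at least 58.1-fold higher than at day 1 on the same floor. With AA147 neither GCM1 (6 reads in all) nor INSL4 (7 reads) passed the count filter of the comparison with day 1.

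The 3 steroid enzymes did not move together. CYP11A1, the mitochondrial enzyme that cleaves the cholesterol side chain, had 26, 28 and 28 reads at day 1, 218, 357 and 355 with RP22, and 32, 28 and 36 with AA147. The AA147 libraries were thus near the day 1 level and the RP22 libraries far above both. AA147 gave 3.93 ± 0.330 CPM against 27.2 ± 6.35 with RP22, a log2 fold change of -2.79 ± 0.212 (edgeR adjusted p = 3.1e-05). Against day 1 the change was 3.37 ± 0.219 with RP22 and 0.67 ± 0.237 with AA147 (edgeR adjusted p = 0.026). The latter call was lost with DESeq2 (adjusted p = 0.098), with library totals alone (log2 fold change 0.23, adjusted p = 0.39), and without AA147 replicate 3 or any 1 of the day 1 libraries (0.060 to 0.079).

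HSD3B1, which converts pregnenolone to progesterone and is the isoform of placenta and skin, was the exception. It had 1, 0 and 0 reads at day 1, 358, 951 and 786 with RP22, and 1216, 1651 and 1135 with AA147. All AA147 libraries exceeded all RP22 libraries, of which replicate 1 was lowest. AA147 gave 165 ± 40.5 CPM against 61.2 ± 26.5 with RP22, a log2 fold change of 1.43 ± 0.384 (edgeR adjusted p = 0.022). With library totals alone, which moved the median of all genes to -0.49, it was 0.96 (adjusted p = 0.074). The call was also lost without AA147 replicate 1 (adjusted p = 0.054), AA147 replicate 2 (0.052) or RP22 replicate 3 (0.067), and held without RP22 replicate 1 (1.15, adjusted p = 0.015). Its close relative HSD3B2 of the adrenal and gonads, which shares 5.48% of its windows with HSD3B1, had 7 to 14 reads in each day 13 library.

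CYP19A1, the aromatase, had 1, 3 and 1 reads at day 1, 437, 395 and 506 with RP22, and 44, 34 and 46 with AA147. Both day 13 groups were tight and far apart. AA147 gave 5.07 ± 0.636 CPM against 39.2 ± 3.36 with RP22, a log2 fold change of -2.95 ± 0.132, the smallest SE among the 10 genes (edgeR adjusted p = 4.1e-06). RefSeq lists 7 starts for this gene, and gene-level counts do not show which were used.

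**Figure D4:**
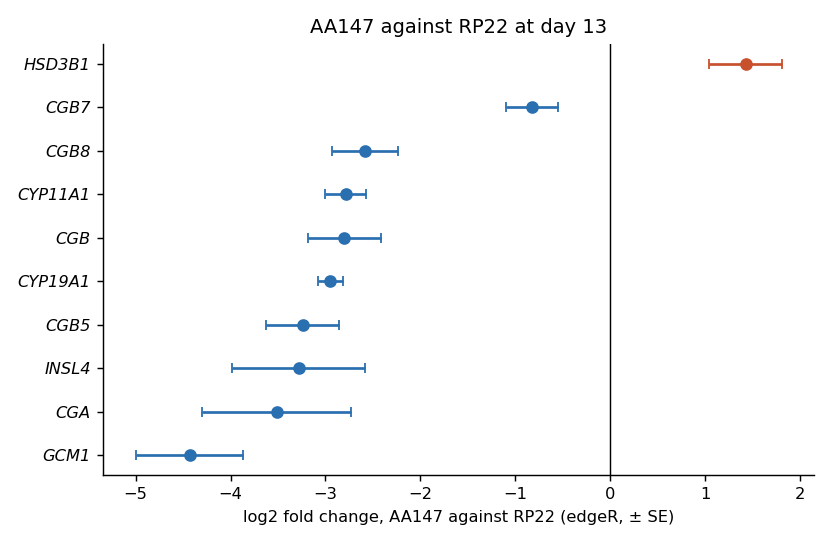
Log2 fold change of AA147 against RP22 at day 13 (x axis, edgeR, with SE as error bars) for the 10 genes, with the line at no change. HSD3B1 lies right of the line at 1.43 and CGB7 nearest to it on the left at -0.82, while the other 8 lie between -2.59 and -4.43.

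Both day 13 groups were set against the same day 1 libraries. With AA147, 8 of the 10 genes passed the count filter and all 8 were higher than at day 1 (edgeR adjusted p of 0.026 or below), where 38.7% of 13761 genes tested were higher and 40.4% lower. No tested member was lower than at day 1 with either compound, by edgeR at an adjusted or an unadjusted p under 0.05, or by DESeq2. Side by side, the log2 fold changes against day 1 with RP22 and with AA147 were 7.57 and 4.82 for CGB, 4.83 and 4.09 for CGB7, and 7.85 and 4.96 for CYP19A1. HSD3B1, with 1 read at day 1, stood at 1933 times (347 to 76373) with RP22 and 5452 times (978 to 215405) with AA147.

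Per length, CGA was the most abundant of the 10 with RP22, at 460 ± 143 RPKM (SD, n = 3). CGB5 (45.5 ± 14.4), CGB8 (43.8 ± 15.7), HSD3B1 (43.0 ± 19.5) and CGB (37.7 ± 10.6) followed and overlapped one another. CYP11A1 (16.4 ± 4.26) and CYP19A1 (14.3 ± 1.47) also overlapped, and CGB7 (8.56 ± 2.03), INSL4 (5.50 ± 1.77) and GCM1 (2.34 ± 0.597) were lowest. With AA147 the order began with HSD3B1 at 83.8 ± 20.4 RPKM and CGA at 28.9 ± 29.6. The CGB rows stood at 2.63 to 5.29 RPKM and overlapped, CYP11A1 at 1.70 ± 0.165, CYP19A1 at 1.30 ± 0.169, INSL4 at 0.382 ± 0.518 and GCM1 at 0.075 ± 0.0651. HSD3B1 made up 8.45 to 12.7% of the reads on the 10 genes in the RP22 libraries and 60.7 to 86.4% in the AA147 libraries, while CGA made up 54.7 to 58.2% and 4.61 to 27.0%.

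Genes with a pattern like that of CGA were sought over the 9 libraries among 12068 genes with a mean of at least 5 CPM, as a description. The highest Pearson correlations of log2 CPM were those of MTUS2 (0.994), RSPO3 (0.991), FREM2 (0.989), WDR86 (0.989), SYNJ1 (0.987) and NBPF1 (0.986). RSPO3 averaged 0, 69.1 and 14.4 CPM at day 1, with RP22 and with AA147, and MTUS2 1.06, 19.5 and 7.64. Among the other members the values ran from 0.844 (HSD3B1) and 0.870 (GCM1) to 0.983 (CGB8) and 0.986 (CYP19A1). All of these rest on 3 groups of 3 libraries.

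Other hormones and secreted proteins of the placenta divided between the compounds, as did all genes tested (29.8% higher and 32.2% lower with AA147). Of 32 listed genes 20 were tested for AA147 against RP22, and 9 were higher and 8 lower (edgeR), with a median log2 fold change of 0.63; with library totals alone 4 were higher. PAPPA, a protease that releases insulin-like growth factors from a binding protein, rose by 1.75 ± 0.445 to 442 ± 36.7 CPM, whereas its relative PAPPA2 fell by 2.63 ± 0.0976 from 79.7 ± 3.70 CPM. PGF, placental growth factor, fell by 4.24 ± 0.280, with 500, 575 and 646 reads with RP22 and 29, 9 and 27 with AA147. The pregnancy-specific glycoproteins PSG5 and PSG4 were among the most abundant called genes, at 1.97 ± 0.477 and 1.02 ± 0.311. With library totals alone PSG4 was 0.55 (edgeR adjusted p = 0.16). The list holds PSG1 to PSG9 and PSG11, and how far these rows share reads was not examined. CGB1 and CGB2 are also on it and are part of the summed CGB rows above. Its counts and median are thus not all of separate genes. The vasodilator peptide ADM rose by 0.90 ± 0.159. CRH, corticotropin-releasing hormone, which falls outside the naming rule and was chosen after its values were seen, had 22 to 39 reads with RP22 and 0 to 2 with AA147. Placental lactogens and growth hormone were at or near 0: GH2 and CSHL1 had no read at day 13, CSH1 had 1 read with each compound, and CSH2 had 4 reads with RP22.

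The rest of the steroid pathway moved mostly downward or not past the test. Over all genes tested 29.8% were higher and 32.2% lower with AA147 than with RP22. Of 25 genes 16 were tested, 4 were higher and 8 lower, with a median of -0.25; library totals alone gave 1 higher and 10 lower, and without RP22 replicate 3 the edgeR test gave 5 lower. STS, the sulfatase that frees steroid precursors, fell by 0.86 ± 0.153. The electron carriers FDX1 and POR fell by 0.34 ± 0.119 and 0.25 ± 0.0896. SRD5A1 (0.74 ± 0.114) and HSD17B12 (0.42 ± 0.0724) were higher with TMM scaling, and with library totals alone HSD17B12 turned to -0.03 and SRD5A1 was 0.29 with an adjusted p of 0.060. STAR, the cholesterol carrier of adrenal and gonad, had 4 to 18 reads with RP22 and 0 or 1 with AA147, and CYP17A1, which makes androgens, had 2 reads in all at day 13. Chosen after their values were seen, HSD11B2, which inactivates cortisol in the placenta, had 24 to 46 reads with RP22 and 0 to 2 with AA147, against 49 to 66 at day 1, and the estrogen sulfotransferase SULT1E1 had 51, 11 and 11 reads with RP22 and none with AA147.

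Syncytiotrophoblast fusion genes and trophoblast regulators split as well. Of 29 tested, 7 were higher and 14 lower, with a median of -0.36, against 29.8% higher and 32.2% lower of all genes tested; library totals alone gave 5 higher and 19 lower, with a median of -0.82. The 6 most abundant called genes were KRT7, a keratin of trophoblast and other simple epithelia (1.57 ± 0.107), CAPN6 (2.07 ± 0.206), SLC1A5, a glutamine transporter that serves as a syncytin receptor (1.25 ± 0.0804), TFPI2 (2.50 ± 0.132), GATA3 (0.47 ± 0.0731) and TBX3 (-1.24 ± 0.164). GATA3 had near-equal reads in both groups (3193 with AA147 and 3210 with RP22), and its log2 fold change with library totals alone was 0.02. The envelope genes, named after their values were seen, fell with AA147: ERVW-1 (syncytin-1) had 254, 362 and 423 reads with RP22 and 17, 3 and 13 with AA147. ERVFRD-1 (syncytin-2) had 115, 158 and 212 reads with RP22 and 25, 5 and 12 with AA147. Their log2 fold changes were -4.48 ± 0.397 and -3.03 ± 0.463 (edgeR adjusted p of 0.0011 or below). A link between these falls and that of GCM1 was not tested. DYSF, on the same list, went the other way, with 1134 reads with RP22 and 1965 with AA147.

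Markers of other sources of these hormones were counted in the same way, beside 29.8% higher and 32.2% lower of all genes tested. Of 11 pituitary markers 3 were tested and none was called by edgeR with TMM (0 also at an unadjusted p under 0.05 and by DESeq2). Lower with AA147 were 1 with library totals alone, and 2 with limma on log2 RPKM or once replicate 1 of AA147, or of both compounds, was dropped. The list summed to 42.6 to 178 CPM of the library totals with RP22 and 1.84 to 27.2 with AA147; PITX1 gave most of the RP22 reads. FSHB and PRL had no read in any library, and TSHB had 1. Of 10 adrenal and gonadal markers 2 were tested and AMH was lower with AA147 (-1.06 ± 0.358), a call lost with DESeq2 and without AA147 replicate 3 or any 1 of the RP22 libraries. The list summed to 6.03 to 7.88 CPM with RP22 and 1.99 to 3.12 with AA147; CYP11B1, CYP11B2 and MC2R had no read at day 13. Of the hormone receptors 4 of 12 were tested and PRLR, the prolactin receptor, fell by 1.30 ± 0.182 and was the 1 called by edgeR with TMM; 3 were lower with library totals alone or limma on log2 RPKM, and 2 with DESeq2 or once replicate 1 of both compounds was dropped. LHCGR, the receptor of chorionic gonadotropin, had 5 reads with RP22 and none with AA147.

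Markers of neighbouring extraembryonic tissues moved in both directions, as did all genes tested. The counts here stand beside 29.8% higher and 32.2% lower of all genes tested with AA147 against RP22. Of 10 amnion markers 6 were higher and 2 lower, with a median of 1.16. The higher ones were ITGB6 (2.93 ± 0.161), IGFBP3 (2.61 ± 0.153), GABRP (2.33 ± 0.253), BAMBI (1.48 ± 0.152), VTCN1 (1.26 ± 0.157) and WNT6 (1.06 ± 0.0796). The 2 lower ones were TFAP2B (-1.14 ± 0.178) and HEY1 (-1.95 ± 0.158). POSTN did not pass the test, at 18279, 1520 and 2426 reads with RP22 and 2080, 704 and 611 with AA147. Most of its RP22 reads came from replicate 1. Of 16 tested cytotrophoblast and extravillous markers 7 were higher and 6 lower, with a median of 0.34; without RP22 replicate 1, 9 were higher and 4 lower, and with library totals alone 5 and 6. MMP2 (2.03 ± 0.125), MFAP5 (3.32 ± 0.118), SPINT1 (1.15 ± 0.0794), ITGA5 (1.34 ± 0.157) and ITGA2 (1.94 ± 0.161) rose, and PEG10 (-2.06 ± 0.544) fell. The other 5 lower ones were TP63 (1198 reads with RP22 and 379 with AA147), CDX2 (257 and 9), EOMES (556 and 0), ELF5 (71 and 3) and LRP2 (4951 and 1329). No cell type was assigned from these genes. TEAD4 (461 and 460) and ITGA6 (5416 and 5620), also on the list, did not fall and had near-equal reads in both groups. With TMM scaling, near-equal reads are a higher level with AA147, as for GATA3 above. Of 6 tested pluripotency markers 5 were lower and ZFP42 was higher (0.51 ± 0.0904, and 0.06 with library totals alone). All 12 ATF6 targets were higher, with a median of 0.92, and 11 with library totals alone, which left out SDF2L1.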

How the data were processed

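Human HUES9 cultures were profiled by RNA sequencing in 9 libraries. The authors deposited expected counts per gene and RPKM (scaled to gene length and library size) per library. Per the submitters' processing notes the genome build was GRCh37.p13; which aligner and counter were used is not given in the sources used here. Values of 0.05 in the counts and 0.002 in the RPKM were the smallest in the deposited tables, filled 41.4% of cells and were read as 0; fractional counts were rounded, and 42 symbols on 2 rows were summed. Mouse feeder reads could not be separated.

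The members and lists were chosen with earlier results of these data known. Counts were tested with edgeR 4.0.16 in R 4.3.3 (filterByExpr, TMM, robust quasi-likelihood F test, Benjamini-Hochberg over all tested genes, threshold 0.05), each comparison on its own 6 libraries. SE is the log2 fold change divided by the square root of F. DESeq2 1.42.0, limma 3.58.1 (voom, and log2 RPKM with 0.1 added), other scalings, no filter, 1 fit of all libraries, a replicate block, summed CGB rows and leaving out libraries were alternatives. The test was checked on simulated counts. All members were named; of each other list, up to 6 called genes with the highest mean CPM. A few values are left out of the text. Same-numbered replicates of AA147 and RP22 correlated at 0.232, 0.178 and 0.0917, and differently numbered ones at -0.248 to 0.164. These values do not exclude a shared replicate effect. The labels do not say that the numbers mark a shared day or batch, so the main test did not take them as pairs. Depth was 9223026 to 10118260 reads per library.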

Additional observations from a re-analysis of the deposited data

How the results depend on the processing

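Over 17 settings per member (16 for the CGB rows), no member changed direction. For AA147 against RP22, 156 of 166 single values kept their side of the threshold and 10 lost it, for RP22 against day 1 all 166 kept it, and for AA147 against day 1 121 of 132 kept it and 11 lost it. The 10 were 5 of HSD3B1, 4 of CGB7 and 1 of CGA, and the 11 were 9 of CYP11A1 and 2 of CGA (adjusted p = 0.064 without day 1 replicate 2 and 0.073 without replicate 1 of both groups). The number of members higher with AA147 than with RP22 was 1, and 0 with library totals alone and without replicate 1 of both groups; leaving out 1 library at a time gave 0 to 1, with 0 without AA147 replicate 1, AA147 replicate 2 or RP22 replicate 3. With the CGB rows summed, 5 members were higher with AA147 than at day 1, because 4 rows became 1. A replicate block left 9 members lower and 1 higher with AA147 than with RP22 and moved CYP11A1 against day 1 to an adjusted p of 0.059, and it gave 1 pituitary marker and 2 hormone receptors lower with AA147 than with RP22; AA147 libraries 1 and 2 correlated best with the RP22 library of their number, and 3 did not. With library totals alone, 1897 genes were higher and 8527 lower with AA147 than with RP22, against 4265 and 4600 with TMM. The counts of the other lists under these settings were added after seeing the data. Depth limits INSL4 and GCM1, with 7 and 6 reads in the AA147 group, and all members but CYP11A1 and CGB7 at day 1, with 0 to 5 reads.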

Other observations

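Regulators of trophoblast genes that the report does not describe also differed between the compounds at day 13. They lie outside the naming rule and were chosen after their values were seen. GATA2, a GATA factor that acts on trophoblast genes, had 1351 reads over the 3 RP22 libraries and 194 over the 3 AA147 libraries, a log2 fold change of -2.31 ± 0.274 (SE, edgeR). The homeobox genes DLX3, DLX4 and DLX5 were lower with AA147 as well, at -0.95 ± 0.182, -1.78 ± 0.401 and -3.07 ± 0.457. ESRRG, an orphan nuclear receptor, fell by 2.08 ± 0.276, whereas PPARG rose by 0.92 ± 0.260 with TMM scaling and did not pass the test with library totals alone (0.47, adjusted p = 0.13). TFAP2A had 2934 reads with AA147 and 4126 with RP22, a log2 fold change of -0.01 ± 0.0978 that did not pass the test.

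The same lists were set against the shared day 1 libraries. Of the other placental hormones 16 were tested with each compound, with 13 higher and 1 lower for RP22 and 13 higher and 2 lower for AA147. Of the fusion genes and regulators 26 of 29 tested were higher and 1 lower with RP22, and 17 of 22 higher and 1 lower with AA147. Of the other steroid genes 10 of 17 tested were higher and 4 lower with RP22. With AA147 the split of these depended on scaling, at 7 higher and 3 lower of 12 with TMM and 3 higher and 5 lower with library totals alone. Over all genes tested 36.6% were higher and 35.2% lower with RP22, and 38.7% and 40.4% with AA147. HSD11B2 stood at 171, 104 and 4 reads over the 3 libraries of day 1, RP22 and AA147.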
